A study of Mus musculus with 6 samples.

Results

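The miR-26 family of the mouse kidney was taken as the 2 array entries named mmu-miR-26a-5p and mmu-miR-26b-5p, chosen by name out of 1247 miRNAs on the array and written below without the species prefix. Both passed the filter on dim signals, as did 193 miRNAs in all. MicroRNA levels had been measured in kidney of male C57BL/6 mice, a standard inbred strain, aged 20 months (3 arrays) and 2 months (3 arrays). No mouse is labelled as treated or genetically altered, and per the labels the groups differ in age alone. Total RNA containing small RNA came from whole kidney, and 100 ng of it was labelled with Cy3 and hybridised to a 1-colour Agilent miRNA array. The series speaks of independent RNA preparations but ties none to an animal, so a p-value below reflects how far preparations differed, in part perhaps for technical reasons.

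A miRNA is a short RNA that guides Argonaute proteins to messenger RNAs, mostly through pairing of its seed, the bases 2 to 8, with the target. The miR-26 family is abundant in many differentiated tissues. It is known for repressing Ezh2, the histone methyltransferase of the Polycomb complex, and for falling in many tumours. Its genes lie inside genes of the Ctdsp group, which encode small phosphatases acting on the carboxy-terminal domain of RNA polymerase II, and the miRNA and its host are commonly expressed together.

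The mature sequences are shown because the members share their seed, given here in capitals, and differ at few other bases. They were taken from RefSeq on the GRCm38.p6 build, where all 5 names looked up for the family, opposite arms included, were matched.
miR-26a-5p: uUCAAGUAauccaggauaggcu
miR-26b-5p: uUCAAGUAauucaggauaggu
Counted from 1 at the 5′ end of miR-26a-5p, the members differ by C11U and C21U, miR-26a-5p being listed first, and 19 of the 21 positions compared are the same. miR-26a-5p has 22 bases and miR-26b-5p 21. The seed UCAAGUA stood in 2 of the 1679 distinct RefSeq mouse miRNA names, which were these 2 members. No further miRNA among these names therefore joined the family by seed. Of the 1247 miRNAs on the array 1017 were among them, and the seeds of the rest were not checked.

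The hairpins show that miR-26a-5p has a pair of source genes and miR-26b-5p a single one. The mature 5′ arm is in capitals.
Mir26a-1: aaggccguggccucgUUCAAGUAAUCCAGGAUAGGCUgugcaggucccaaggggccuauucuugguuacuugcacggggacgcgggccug
Mir26a-2: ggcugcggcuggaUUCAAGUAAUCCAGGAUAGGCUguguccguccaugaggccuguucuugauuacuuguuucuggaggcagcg
Mir26b: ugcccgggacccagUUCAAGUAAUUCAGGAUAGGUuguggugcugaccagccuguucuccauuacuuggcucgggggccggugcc
Mir26a-1 lies at chr9:119031796-119031885 on the plus strand within Ctdspl. Mir26a-2 lies at chr10:126995530-126995613 on the plus strand within Ctdsp2. Mir26b lies at chr1:74394310-74394394 on the plus strand within Ctdsp1. The array's miR-26a-5p signal cannot be divided between Mir26a-1 and Mir26a-2, since their mature 5′ arms are identical.

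The arrays were comparable in depth apart from 1 brighter array. The 75th percentile of signal, over the 315 probes well above background throughout, ran from 1171 to 2054 intensity units. Per array 177 to 209 miRNAs were detected, the fewest on 20-month array 3. All 7 kidney miRNAs on the marker list, among them miR-192-5p and miR-30a-5p, were detected on all 6 arrays. Of 5 miRNAs typical of liver, muscle, brain and islet, 4 were detected on none, and miR-1a-3p, of muscle, was detected on 2 arrays of each age. Over the tested miRNAs, 20-month arrays correlated with each other at 0.972 to 0.989 and 2-month arrays at 0.998. Pairs of 1 array from each age correlated at 0.970 to 0.993. For 20-month array 1 the correlation was 0.983 with 20-month array 2 and 0.972 with array 3, and 0.991 to 0.993 with the 2-month arrays. That of 20-month array 3 with the 2-month arrays was 0.970 to 0.976. All 6 arrays lay on 1 slide. The 3 2-month arrays and 20-month array 1 were in its first row, and 20-month arrays 2 and 3 in its second.

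miR-26a-5p was among the brightest miRNAs of the kidney at both ages. By summed probe signal it ranked 17, 15 and 14 of 1247 on 20-month arrays 1, 2 and 3 and 15 on each 2-month array. miR-26b-5p ranked 33, 29 and 36 on the 20-month arrays and 37, 38 and 39 on the 2-month arrays. Its 20-month ranks were thus all nearer the top than its 2-month ranks, by as little as 1 place. Its scaled signals, given below, overlapped between the ages. A rank also moves when other miRNAs change, and for how many others the ranks separated was not counted. A rank here orders fluorescence and not molecules, because probes of different miRNAs respond differently. The highest ranks over the 6 arrays belonged to miR-6366, miR-3963 and miR-5100, with let-7a-5p and let-7f-5p, of the let-7 family known for promoting differentiation, next to them.

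In that order the members were close to their neighbours. Next above miR-26a-5p, at a mean scaled signal of 2.72 (log2, over 6 arrays), stood the endothelial miR-126-3p at 2.77, and next below it miR-21a-5p, known to be induced in renal injury, at 2.60. The step to miR-126-3p was smaller than the within-group SD of miR-26a-5p of 0.09, and the step to miR-21a-5p was 0.12. miR-26b-5p, at 1.44, lay between let-7i-5p at 1.51 and miR-30c-5p, of a family abundant in tubules and podocytes, at 1.43. Both of these steps were smaller than its within-group SD of 0.08.

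Neither member passed the test for a change with age. miR-26a-5p had scaled signals of 2.68, 2.76 and 2.92 (log2) on 20-month arrays 1, 2 and 3, against 2.62, 2.61 and 2.69 on the 2-month arrays. Its highest signals were those of 20-month arrays 3 and 2. The groups overlapped, since 20-month array 1 lay just under 2-month array 3. miR-26a-5p averaged 2.79 ± 0.12 at 20 months and 2.64 ± 0.04 at 2 months (SD, n = 3 each). The difference was 0.15 ± 0.09 (log2, limma SE) or 1.11-fold, with a limma Benjamini-Hochberg adjusted p of 0.332. Its 95% interval ran from -0.06 to 0.36, or 0.956-fold to 1.28-fold. Without 20-month array 3 the difference was 0.08.

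miR-26b-5p had scaled signals of 1.42, 1.62 and 1.44 (log2) on 20-month arrays 1, 2 and 3, against 1.42, 1.34 and 1.43 on the 2-month arrays. 20-month array 2 stood above the rest, and the other 20-month arrays lay among or beside the 2-month ones. miR-26b-5p averaged 1.49 ± 0.11 at 20 months and 1.40 ± 0.05 at 2 months (SD, n = 3 each). The difference was 0.09 ± 0.08 (log2, limma SE) or 1.07-fold, with a limma adjusted p of 0.488. Its 95% interval ran from -0.11 to 0.30, or 0.928-fold to 1.23-fold. Without 20-month array 2 the difference was 0.03.

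**Figure D1:**
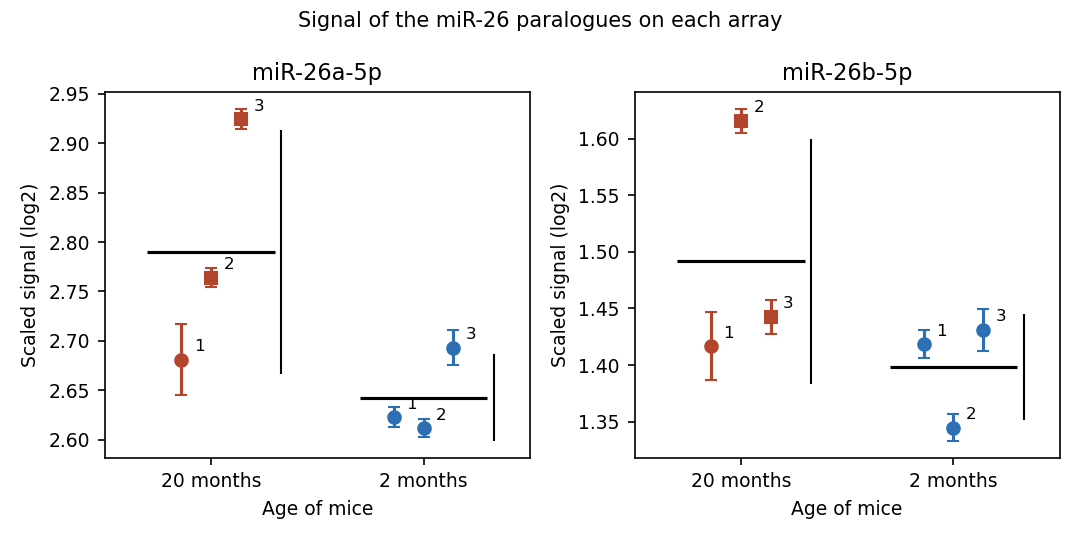
Scaled signal (log2) of miR-26a-5p (left) and miR-26b-5p (right) on each array, 20 months left of 2 months. Circles are arrays of the first slide row and squares of the second, numbers are replicates, bars on points are the standard error over spots, and lines are group means with 1 SD beside them. The highest point is 20-month array 3 (2.92) for miR-26a-5p and 20-month array 2 (1.62) for miR-26b-5p.

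Of the 193 miRNAs tested 15 passed the threshold of 0.05, or 7.77% (4.15% higher and 3.63% lower), and 0 of the 2 members did. The ages did not overlap for 10.4% of the tested miRNAs with higher and 20.2% with lower 20-month signals, and overlapped for both members with this scaling. By limma neither member had an unadjusted p under 0.05 (0.141 for miR-26a-5p and 0.304 for miR-26b-5p), against 25.4% of the tested miRNAs. Both differences were positive, as were 33.7% of those tested. Over all 193 the median difference was -0.08, so miR-26a-5p stood 0.23 and miR-26b-5p 0.18 above it. From the most positive difference down, miR-26a-5p had place 29 and miR-26b-5p place 37 of 193.

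**Figure D2:**
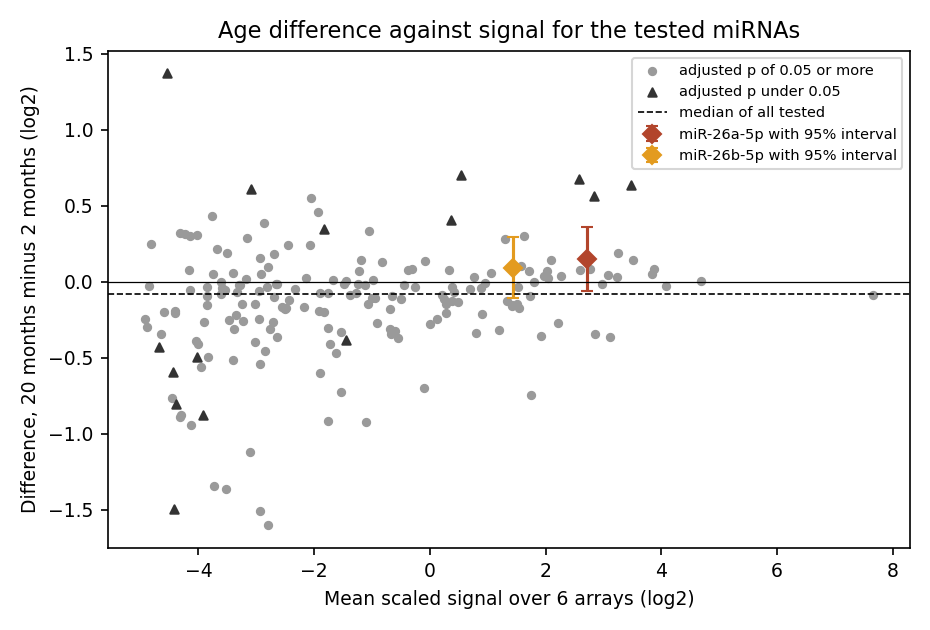
Difference of 20 months minus 2 months (log2) against the mean scaled signal over 6 arrays (log2) for the 193 tested miRNAs. Triangles passed the threshold, grey points did not, diamonds are the members with 95% intervals, and the dashed line is the median of all (-0.08). Both members lie above the dashed line with intervals that include 0.

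Compared with miRNAs of like brightness, the members' differences were of ordinary size. Within 1 log2 unit of the mean signal of miR-26a-5p lay 22 other tested miRNAs, with a median difference of 0.04, and 9 of them had a larger difference in either direction. Within 1 log2 unit of miR-26b-5p lay 31, with a median of -0.04, and 18 of these had a larger one. The within-group SD of miR-26a-5p, 0.09, was exceeded by 69.9% of the tested miRNAs, and that of miR-26b-5p, 0.08, by 79.8%. The median within-group SD of the tested miRNAs was 0.12. Of the 22 miRNAs close to miR-26a-5p in brightness, 11 had a larger within-group SD. Of the 31 close to miR-26b-5p, 22 did.

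Each member had 2 probes, 4 in all, with 16 to 20 spots kept per probe and array, and each probe was well above background on every array. The standard error of a member's signal from its spots was 0.01 to 0.04 (log2). The SD between arrays was 0.12 at 20 months and 0.04 at 2 months for miR-26a-5p, and 0.11 at 20 months and 0.05 at 2 months for miR-26b-5p. On 20-month array 1 the spots of the members' probes varied by 10.3% to 15% (coefficient of variation), against 2.30% to 9.54% on the other 5 arrays. Over all 315 probes that array also had the highest median variation, 9.87%, against 5.56% to 8.41%. Without that array the differences between ages were 0.20 for miR-26a-5p and 0.13 for miR-26b-5p (log2), neither past the threshold. The groups of both members then no longer overlapped, as for 18.1% of the tested miRNAs with higher 20-month signals. The 20-month arrays left were all in the second slide row and the 2-month arrays all in the first, so age and row cannot be told apart there.

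All 4 probes had higher means at 20 months. For miR-26a-5p the brighter probe differed by 0.16 (log2, 20 months minus 2 months) and the dimmer by 0.13. For miR-26b-5p the brighter probe differed by 0.08 and the dimmer by 0.12. Within a member, the ratio of brighter to dimmer probe stayed between 1.74 and 1.89 on all 6 arrays for both miRNAs. For the dimmer probe of each member all 3 20-month arrays lay above all 3 2-month arrays, and for the brighter probes the groups overlapped. The share of all probes that separated in this way was not counted. Of the tested miRNAs as wholes, 10.4% did so. The dimmer probe of miR-26a-5p had 1.22, 1.29 and 1.40 (log2) on the 20-month arrays, against 1.17, 1.16 and 1.19 on the 2-month arrays.

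The paralogues were set against each other on each array, since their ratio is the same whatever single factor an array is divided by. Quantile normalization is no such factor. miR-26a-5p had 2.40, 2.22 and 2.79 times the signal of miR-26b-5p on 20-month arrays 1, 2 and 3, against 2.30, 2.41 and 2.40 times on the 2-month arrays. The 20-month arrays held both the lowest and the highest ratio, and the 2-month arrays lay close together between them. On the log2 scale this gap averaged 1.30 ± 0.17 at 20 months and 1.24 ± 0.03 at 2 months (SD, n = 3 each). The difference of 0.05 ± 0.10 (SE) gave p = 0.8 in an exact two-sided permutation test, for which 0.1 is the smallest value that 3 against 3 arrays allow.

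The sign of that difference rested on 20-month array 3. Without that array it was -0.038, and without 20-month array 2 it was 0.13. Under quantile normalization it was -0.18. Over the 4 pairings of 1 miR-26a-5p probe with 1 miR-26b-5p probe the difference ranged from 0.01 to 0.08. The size of the ratio mixes abundance with probe response. The members differ by few bases, and whether a probe of one also takes up the other was not tested.

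**Figure D3:**
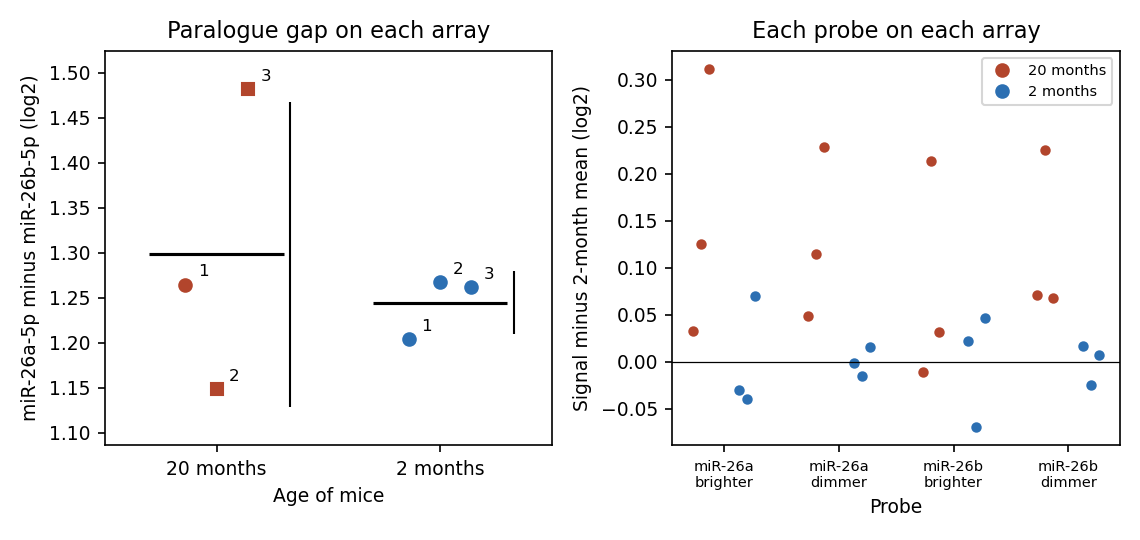
Left, miR-26a-5p minus miR-26b-5p signal (log2) on each array, with the replicate number, group mean and 1 SD, and squares for the second slide row. Right, signal of each of the 4 probes on each array minus that probe's 2-month mean (log2). The gap spans 1.15 to 1.48 at 20 months and 1.204 to 1.267 at 2 months.

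The members' profiles over the 6 arrays were also compared with those of the other tested miRNAs, each centred on its own mean, as the root mean square difference. The members lay 0.10 (log2) apart, which put miR-26b-5p in place 45 of 192 by closeness to miR-26a-5p and miR-26a-5p in place 32 by closeness to miR-26b-5p. The median distance was 0.17 from either. Closest to miR-26a-5p were miR-677-3p at 0.04, then let-7c-5p, miR-30a-3p, let-7a-5p and miR-140-3p at up to 0.06. Closest to miR-26b-5p were miR-21a-5p at 0.02, then miR-15a-5p, miR-126-3p, let-7f-5p and miR-23a-3p at up to 0.07. These 10 were ordered by a distance over 6 arrays that share their scaling, and they differed between ages by 0.05 to 0.18.

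The opposite arms of the hairpins were not detected at either age. miR-26a-1-3p and miR-26a-2-3p, from the Mir26a genes, and miR-26b-3p, from Mir26b, are the strands usually discarded when the hairpin is processed. Their 8 probes had mean signals of -4.08 to 9.85 intensity units over all arrays, where the dimmest probe well above background had 30.3 to 38.6. Of 720 spot readings on these probes 4 were marked well above background, and no probe reached the required share. No age difference can be given for these arms.

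The 20-month arrays were also split between rows of the slide. 20-month array 1, which shares a row with the 2-month arrays, stood 0.04 above the 2-month mean for miR-26a-5p and 0.02 above it for miR-26b-5p (log2). The 20-month arrays of the second row averaged 0.20 and 0.13 above it. For miR-26a-5p array 2 stood 0.12 and array 3 0.28 above it. For miR-26b-5p array 2 stood 0.22 above it and array 3 stood 0.04. With slide row as a block the differences were 0.04 ± 0.13 for miR-26a-5p and 0.02 ± 0.13 for miR-26b-5p (limma SE). These estimates set 20-month array 1 alone against the 3 2-month arrays. The second row held no 2-month array, so within it row and age cannot be told apart.

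The size of the difference depended strongly on the scaling between arrays, without either member passing the threshold. It ran from -0.0089 to 0.56 for miR-26a-5p and from 0.09 to 0.51 for miR-26b-5p. The differences of miR-26a-5p and miR-26b-5p were 0.29 and 0.23 with the median over detected probes. There miR-26a-5p had a 95% interval of 0.05 to 0.52, an unadjusted limma p of 0.0247 and an adjusted one of 0.136. The differences were 0.56 and 0.51 when the 75th percentile was taken over every probe. They were 0.35 and 0.30 with no scaling. Under quantile normalization they were -0.0089 and 0.17, so the sign for miR-26a-5p turned. The groups of both members did not overlap with the median over detected probes (23.3% of those tested had higher 20-month signals without overlap), nor with the 75th percentile over every probe (31.1%). With no scaling the groups of both members overlapped. Under quantile normalization those of miR-26b-5p did not overlap (16.6%) and those of miR-26a-5p did. The median of all tested miRNAs moved too, to 0.06, 0.33, 0.12 and 0.00 in this order of settings. Relative to it miR-26a-5p stood at 0.23 and miR-26b-5p at 0.18 under every one of these settings except quantile normalization. Those settings move all miRNAs of an array alike, so these values were bound to stay the same. Under quantile normalization the members stood at -0.0089 and 0.17.

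In the values processed by the authors the members' groups did not overlap. miR-26a-5p had 5.26, 5.50 and 5.55 (log2) on the 20-month arrays, against 5.19, 5.14 and 5.20 on the 2-month arrays. miR-26b-5p had 3.99, 4.35 and 4.07 on the 20-month arrays, against 3.99, 3.87 and 3.94 on the 2-month arrays. All 20-month values lay above all 2-month values for both, for miR-26b-5p by less than the second decimal shows, as they did for 18.1% of the tested miRNAs. The differences were 0.26 ± 0.10 for miR-26a-5p and 0.21 ± 0.11 for miR-26b-5p (limma SE, adjusted p = 0.23 and 0.358). The unadjusted limma p of miR-26a-5p was 0.0417.

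**Figure D4:**
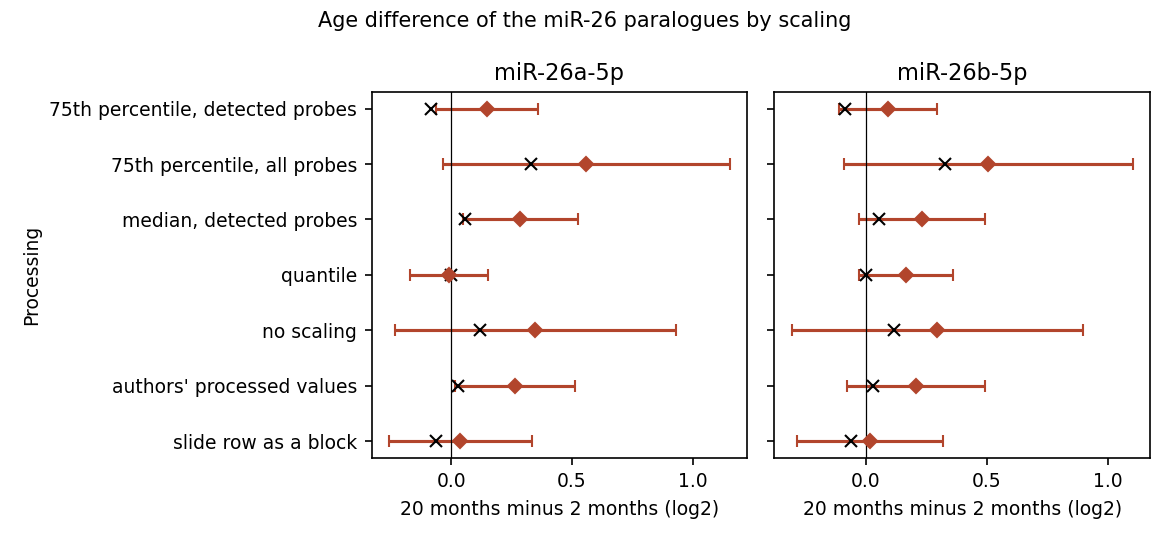
Difference of 20 months minus 2 months (log2, diamonds with limma 95% intervals) for miR-26a-5p (left) and miR-26b-5p (right) under 5 scalings, in the authors' processed values and with slide row as a block. Crosses mark the median of all tested miRNAs in the same fit, which moves with the diamonds from -0.08 in the top row to 0.33 in the second.

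Markers of other cell types were summed in the same whole-kidney RNA, in which fewer cells of a type and less RNA per cell cannot be told apart. Of 5 stromal markers, all tested, 2 passed as higher, miR-199a-3p (0.40) and miR-199a-5p (0.34), where 4.15% of the tested miRNAs did. miR-214-3p stood at 0.30 without passing. For each of these miRNAs all 20-month lay above all 2-month arrays, as for 10.4% of the tested miRNAs. miR-143-3p and miR-145a-5p, known from smooth muscle, stood at -0.27 and -0.25 without passing. For these all 20-month lay below all 2-month arrays, as for 20.2% of the tested miRNAs. The summed signal of the 5 was 1.23 to 1.36 (log2) at 20 months and 1.041 to 1.102 at 2 months. The 6 leukocyte markers, of which 5 were tested and 0 passed by limma, summed to 0.02 to 0.27 at 20 months and -0.32 to -0.12 at 2 months. The 2 erythroid markers found summed to 2.66 to 2.83 at 20 months and 3.05 to 3.22 at 2 months, with 0 passing by limma. Among the leukocyte markers tested, all but miR-142-5p lay higher at 20 months without overlap. The erythroid markers found lay lower without overlap. The summed signal of the 7 kidney miRNAs was 4.56 to 4.75 at 20 months and 4.55 to 4.74 at 2 months. Taken singly, their differences ran from -0.18 for miR-200b-3p to 0.28 for miR-194-5p, with 0 passing by limma. Of them only miR-194-5p had groups that did not overlap. Whether cell makeup had a part in the members' levels was not tested.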

How the data were processed

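Spot intensity values were deposited by the authors and, per the file headers, were read from 1-colour arrays of design 046065 (build mm9) with Feature Extraction 11.5.1.1, which corrected them for background. The flags for each spot are other values deposited by the authors. Their processed values are log2 values deposited by the authors, which equal log2 of the software's total signal of each miRNA minus a fixed value for the array, to within 1.02e-05 over 1247 miRNAs. The origin of that value was not given in the sources used here. Column medians were -9.49, -10.1 and -9.20 at 20 months and -9.74, -9.21 and -9.21 at 2 months.

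For each probe the mean processed intensity of its spots, outlier spots left out, was taken relative to the 75th percentile on that array of 315 probes detected on every array, then summed over a miRNA's probes, floored at -5.22 (log2) and put on that scale. A probe counted as detected, or well above background, where over 50% of its spots were so marked. miRNAs detected on all 3 arrays of an age were tested with limma 3.58.1 in R 4.3.3 (Benjamini-Hochberg, 193 miRNAs, threshold 0.05). The paralogue gap was tested by exact permutation. No spot was saturated (0 on each array), and the number of arrays limits the precision. No 2 arrays held identical values. The procedure was tested on simulated data. The data.table package (version 1.17.8), jsonlite 2.0.0 and matplotlib 3.10.9 were also used.

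miRNAs named are the members, their opposite arms, the 5 closest profiles, the neighbours in signal and the 5 brightest, with marker lists (27 of 28 names matched). Members, lists and rules were chosen with earlier results of these data known. RefSeq GRCm38.p6 differs from the design's build and served for sequences, host genes and the places of hairpins.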

Additional observations from a re-analysis of the deposited data

How the results depend on the processing

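Neither member passed the threshold in any of 24 alternatives (limma adjusted p of 0.136 or more for miR-26a-5p and 0.221 or more for miR-26b-5p). The difference of miR-26b-5p was positive in all 24, from 0.02 to 0.51, and that of miR-26a-5p in 23, up to 0.56. Quantile normalization turned miR-26a-5p to -0.0089 and the gap between the paralogues to -0.18, and the cause was not tested. The gap had 22 alternatives, since array weights and the robust fit do not apply to it. Leaving out 1 array at a time gave 0.08 to 0.20 for miR-26a-5p, 0.03 to 0.13 for miR-26b-5p and -0.038 to 0.13 for the gap.

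The number of miRNAs called, 15, was 2 without scaling, 4 with normexp, 9 with the scanner software's total signal, 6 without a filter and 5 with slide row as a block. It was 39, 9 and 23 without 20-month array 1, 2 or 3, and 6, 5 and 8 without 2-month array 1, 2 or 3. Of the calls 8 were higher and 7 lower, against 18 and 3 with the median over detected probes, 19 and 2 under quantile normalization and 10 and 0 in the authors' values. Normexp used the median spot signal, chosen after seeing the data because the files hold no mean signal.

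With the replicate block 3 miRNAs were called, and the members' differences stayed at 0.15 and 0.09 with neither past the threshold. Deviations of same-numbered arrays correlated at 0.12, -0.58 and 0.31, and those of differently numbered arrays at -0.48 to 0.40. This does not settle whether same-numbered arrays share more than a number. The alternative that left 1 20-month array assumed that it varies like the 2-month ones. The rank of miR-26a-5p had a median of 15, and of 14 by mean probe signal or total signal.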
